A study of Mus musculus with 20 samples.

Results

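The difference between 2 mouse lines that held whatever the stage of the cycle was measured in granulosa cells (GCs) of all 20 mice of the series, 10 of the high-fertility line FL1 and 10 of the unselected line ctrl. Stage entered as an additive term without interaction, so each gene got 1 fold change of FL1 against ctrl over estrus and diestrus together. The genes described are the 181 of 14938 genes tested that differed between the lines in this model.

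GCs line the wall of the ovarian follicle and surround the oocyte. They convert steroid precursors to estradiol under follicle-stimulating hormone, secrete inhibin, and after ovulation become luteal cells, which take up cholesterol, carry it into the mitochondrion and turn it into progesterone. The genes of that conversion therefore mark how far a follicle has gone towards luteinization, while ganglioside enzymes and matrix proteins set the surface and surroundings of the cells.

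Each group of line and stage held 5 mice, and each mouse gave 1 sample. FL1 has been bred for large and heavy litters, the ctrl line was kept without selection from the same founders, and no mouse of either line was treated or carried an engineered allele according to the labels and the study's methods. All mice were 77 ± 5 days old, their stage was read from vaginal smears, and GCs were taken from 7 to 10 of the largest antral follicles of a mouse after the oocyte and its cumulus had been left out. Since each line is 1 population, the effect of selection and any other difference between the 2 populations cannot be told apart. The libraries read the 3′ end of polyadenylated RNA, and between 5446576 and 8257041 reads per sample (median 6457586) fell on genes.

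The samples held the RNA of GCs, but not of GCs alone. Summed CPM (scaled counts, the reads of a gene scaled to a common library size with TMM factors) of 10 granulosa markers lay between 6508 and 14070 CPM in ctrl mice and between 5215 and 13880 CPM in FL1 mice, and none of the 10 differed between the lines. The sum of 6 theca markers was 357.2 to 1175 CPM in ctrl and 510.1 to 1132 CPM in FL1 mice. Of these markers, Cyp17a1 had 9.29 to 233.1 CPM in ctrl and 1.13 to 87.8 CPM in FL1 mice. Insl3 had no more than 1 read in a sample, and none of the 5 tested markers was called. Other panels moved with the line. The sum of 6 luteal markers was 245.7 to 771.4 CPM in ctrl and 486.6 to 4367 CPM in FL1 mice, above every ctrl sample in 9 of 10 FL1 mice, and 4 of the 6 markers (Akr1c18, Prlr, Ptgfr and Sfrp4) are among the genes described below. The sum of 9 macrophage markers was 7.69 to 65.2 CPM in ctrl and 12.8 to 122.8 CPM in FL1 mice, above every ctrl sample in 7 of 10, with Lyz2 as the 1 marker of the 9 that was called and with Ptprc and Cd68 at a median of 0 CPM in ctrl mice. The sum of 5 red cell markers was 47.8 to 676.7 CPM in ctrl (median 312.0) and 138.8 to 1625 CPM in FL1 mice (median 628.8), above every ctrl sample in 5 of 10 FL1 mice. The sum of 8 endothelial markers had a median of 41.65 CPM in ctrl and 97.87 CPM in FL1 mice, above every ctrl sample in 3 of 10, and the 7 tested markers had positive log2 fold changes that did not pass the test. The sum of 9 oocyte markers overlapped (63.1 to 631.3 CPM in ctrl, median 221.4, and 95.7 to 659.2 CPM in FL1, median 411.5). The sum of 6 epithelium markers had a median of 24.0 CPM in ctrl and 33.9 CPM in FL1 mice, above every ctrl sample in 4 of 10. That of 6 smooth muscle markers had a lower median in FL1 mice (536.4 CPM against 602.9 CPM). No marker of these 3 panels was called. The part of other cells in the results was not tested beyond the fits with marker sums given below, and in such mixed samples fewer cells of a type and less RNA per cell cannot be told apart. FL1 estrus replicate 2 stood apart most often, with the highest value of its group for many of the stronger expressed genes.

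Of the 14938 genes tested, 181 (1.21%) differed between the lines at an adjusted p of 0.05 or less in edgeR's quasi-likelihood test, 100 (0.669%) stronger and 81 (0.542%) weaker expressed in FL1 mice. An unadjusted p under 0.05 was found for 1649 genes, these 181 included. The absolute log2 fold change was under 1 for 48 of the called genes, from 1 to 2 for 66, from 2 to 4 for 33 and at least 4 for 34, of which 14 were stronger and 20 weaker expressed. The median log2 fold change over all genes tested was 0.01. DESeq2 with the same terms called 438 of 16340 genes (2.68%), 267 stronger and 171 weaker, and these held 180 of the 181. Without FL1 estrus replicate 2, 139 genes were called, 72 stronger and 67 weaker. With the log2 sum of the macrophage markers as a covariate, a setting added after the data had been seen, 49 genes were called (24 stronger and 25 weaker), 40 of them among the 181, while the median absolute log2 fold change of the 181 genes was 1.43 against 1.46 without it.

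**Figure D1:**
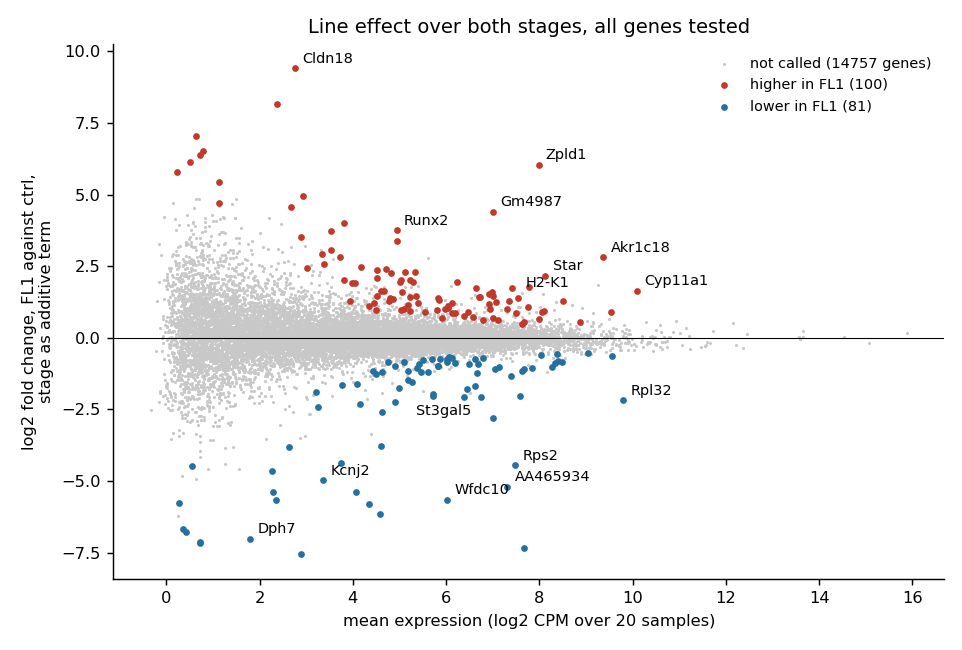
Log2 fold change of FL1 against ctrl with stage as an additive term (y axis) against mean expression in log2 CPM over 20 samples (x axis), 1 point per gene, with 100 called genes stronger (red) and 81 weaker (blue) expressed in FL1 and the rest grey. Zpld1 and Wfdc10 lie far from 0 at a mean level where most genes lie close to it, while the fitted values of genes absent from 1 line, such as Cldn18, depend on the prior count of the fit.

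In 24 of the called genes no FL1 sample fell within the range of the 10 ctrl samples or crossed it, 7 with FL1 above and 17 with FL1 below, against 26 of 14938 genes tested (0.174%). The FL1 samples lay above for Zpld1, Dusp23, Vnn1, Apof, Igha and the pseudogenes Gm4987 and Rpl32l. Among those below every ctrl sample were Wfdc10, St3gal5, Neu3, Dph7, Mfap2, Kcnj2, Atp10d, Abhd1, Gjc1, Smim4, Adpgk, Gm15459 and the ribosomal genes Rps2, Rpl32, Rpl35a and Rpl7a.

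The gene lists were chosen with earlier results of these data known, so their shares of called genes do not rank pathways. Over all genes tested the share was 1.21% and the median log2 fold change 0.01. Steroid hormone genes held the largest share among the lists examined, with 5 of 20 tested members called (4 stronger, 1 weaker). The median log2 fold change over the steroid list was 0.11. Its stronger expressed genes were Star, Cyp11a1, Akr1c18 and Hsd11b2. Star carries cholesterol to the inner mitochondrial membrane, the step that limits steroid synthesis. Star (ENSMUSG00000031574, chromosome 8, 25806555 to 25815982) was expressed at 26.3 to 302 CPM in ctrl mice (median 85.8) and at 110 to 1011 CPM in FL1 mice (median 373). Within each stage all 5 FL1 samples lay above all 5 ctrl samples, from 352 CPM against at most 302 CPM in estrus and from 110 CPM against at most 94.7 CPM in diestrus. The log2 fold change was 2.17 (SE 0.28, adjusted p = 2.54e-05), with 2.10 in estrus and 2.23 in diestrus.

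Cyp11a1, the side chain cleavage enzyme that turns cholesterol into pregnenolone, was expressed at 123 to 1080 CPM (median 410) in ctrl and at 412 to 6214 CPM (median 1406) in FL1 mice (log2 fold change 1.64, SE 0.35, adjusted p = 0.0107). The groups were apart in estrus and overlapped in diestrus, where FL1 replicate 1 had 1771 CPM and the other FL1 samples 412 to 577 CPM. The call of Cyp11a1 was lost under robust estimation (adjusted p = 0.0788). Akr1c18 inactivates progesterone and is a gene of the late corpus luteum. It had 39.2 to 307 CPM (median 128) in ctrl and 72.1 to 3589 CPM (median 762) in FL1 mice, a log2 fold change of 2.83 (SE 0.50, adjusted p = 0.00164). Its difference was 4.02 in estrus and 1.63 in diestrus on the log2 scale, and 2 of the 5 FL1 samples in diestrus had 879 and 1115 CPM.

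Hsd11b2, which inactivates glucocorticoids, rose by 0.94 (SE 0.23, adjusted p = 0.0363), from 105.3 to 279 CPM in ctrl to 140 to 868 CPM in FL1 mice. The call of Hsd11b2 was lost without any 1 of 9 samples, with the highest adjusted p of 0.072 without FL1 diestrus replicate 2. Cyp1b1, which hydroxylates estradiol, was the weaker expressed member. It had 25.5 to 265 CPM (median 158) in ctrl and 18.8 to 116.1 CPM (median 38.3) in FL1 mice (log2 fold change −1.67, SE 0.33, adjusted p = 0.00439), and the lines were apart in estrus alone. The enzymes of estradiol synthesis did not pass the test, with log2 fold changes of 0.28 for Cyp19a1 (adjusted p = 0.899) and −0.56 for Hsd17b1 (adjusted p = 0.238), and Hsd3b1 had 0.53 (adjusted p = 0.319). With the macrophage sum as a covariate Star (log2 fold change 1.85) and Cyp1b1 (−2.56) were still called, while Cyp11a1 (1.41, adjusted p = 0.244), Akr1c18 (1.72, adjusted p = 0.46) and Hsd11b2 (0.96, adjusted p = 0.374) were not. The luteal sums given above moved with these genes, of which Akr1c18 is itself a luteal marker, and their part was not tested.

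Of 26 hormone receptors tested 2 were called, against 1.21% of all genes tested. Both were stronger expressed, and the median log2 fold change of the list was 0.29. Ptgfr, the receptor of prostaglandin F2α, which ends the life of the corpus luteum, had 1.87 to 62.5 CPM (median 29.1) in ctrl and 30.1 to 301 CPM (median 112.4) in FL1 mice, a log2 fold change of 1.96 (SE 0.39, adjusted p = 0.00573) that was 1.92 in estrus and 2.003 in diestrus. Prlr, the prolactin receptor, had 95.1 to 456 CPM (median 177) in ctrl and 213 to 1639 CPM (median 426) in FL1 mice (log2 fold change 1.30, SE 0.33, adjusted p = 0.0435). Its difference was 2.16 in estrus and 0.45 in diestrus, and its call was lost without any 1 of 14 samples, up to an adjusted p of 0.0993 without ctrl estrus replicate 2. The gonadotropin receptors did not pass, Lhcgr with a log2 fold change of 1.82 (adjusted p = 0.106) and Fshr with −0.13 (adjusted p = 0.915). Sfrp4, a secreted Wnt antagonist and a luteal marker, was the 1 called gene of 28 in the Wnt list (log2 fold change 1.75, SE 0.43, adjusted p = 0.0374), with 15.7 to 153 CPM in ctrl and 40.0 to 982 CPM in FL1 mice. Leaving out any 1 of 12 samples ended the call of Sfrp4. With the macrophage sum as a covariate Prlr was still called, at a log2 fold change of 1.82, while Ptgfr had 1.10 (adjusted p = 0.559) and Sfrp4 0.20 (adjusted p = 0.968). The call of Ptgfr was also lost with the red cell sum as a covariate and under robust estimation.

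**Figure D2:**
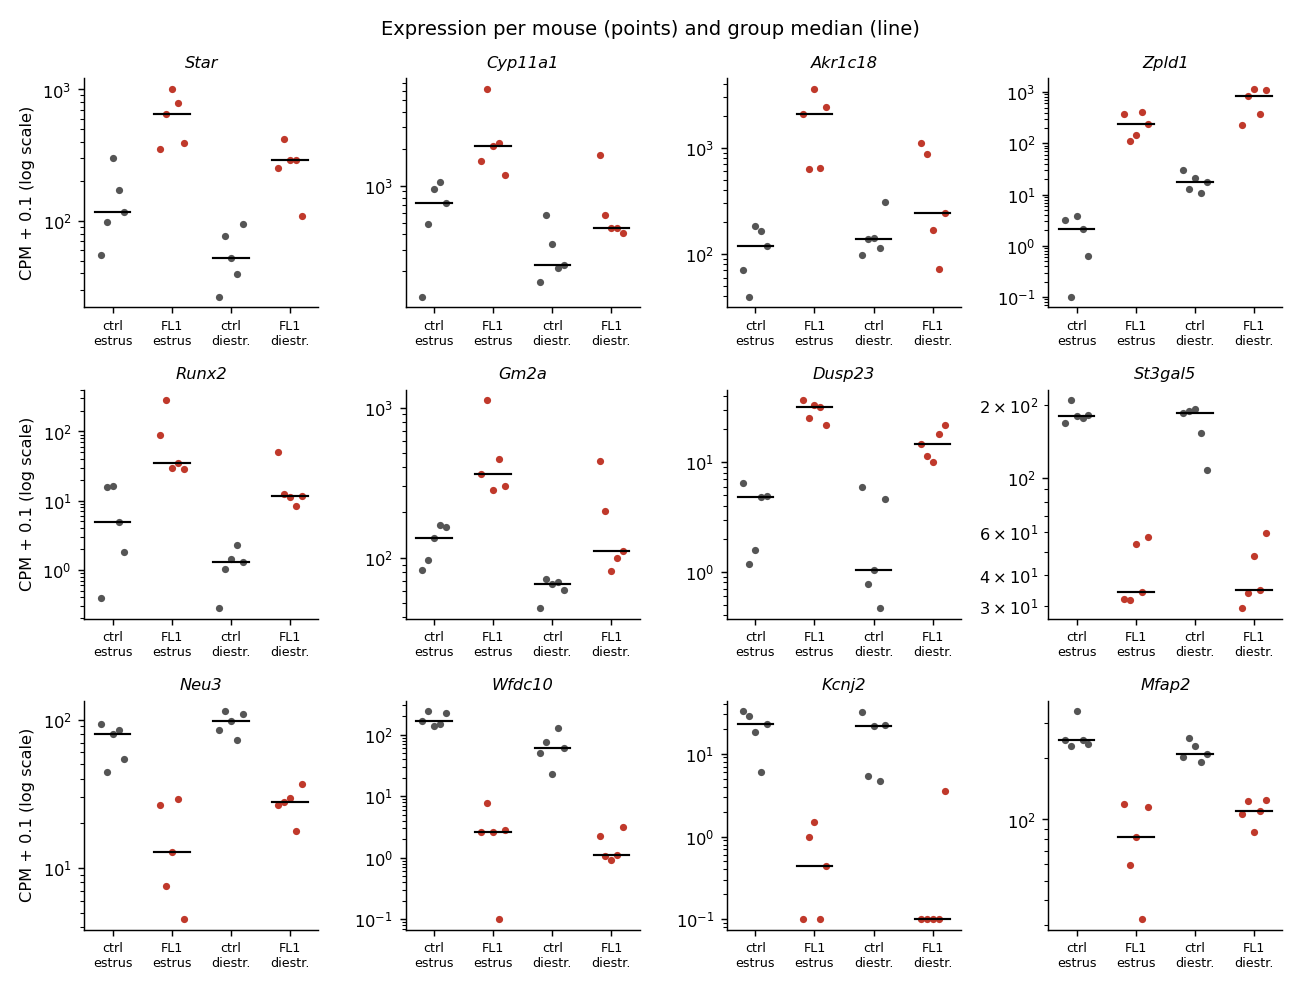
Expression of 12 genes in CPM + 0.1 on a log axis for the 4 groups of line and stage, 1 point per mouse (ctrl grey, FL1 red) with the median of 5 mice as a line. In both stages FL1 lies above ctrl for Star, Zpld1, Runx2, Gm2a and Dusp23, below it for St3gal5, Neu3, Wfdc10, Kcnj2 and Mfap2, while Cyp11a1 and Akr1c18 overlap in diestrus.

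Ganglioside and sphingolipid genes held 5 called genes among 33 tested, against 1.21% over all genes tested. Of the 5, 3 were weaker and 2 stronger expressed, and the list median was 0.16. Gangliosides are sialylated glycosphingolipids of the cell surface. Of the called genes, St3gal5 acts at the step that makes the first of them, and Neu3 and Gm2a at steps that break them down. St3gal5 is the sialyltransferase that makes GM3, from which most other gangliosides derive. St3gal5 (ENSMUSG00000056091, chromosome 6, 72097592 to 72154571) had 107.8 to 209 CPM (median 181) in ctrl and 29.2 to 59.5 CPM (median 34.4) in FL1 mice. Every FL1 sample was below every ctrl sample in both stages, and the log2 fold change was −2.07 (SE 0.16, adjusted p = 1.28e-09), with −2.13 in estrus and −2.01 in diestrus. Gm29438, which overlaps St3gal5 on the same strand, fell by 3.82 (SE 0.94, adjusted p = 0.0353), its call was lost without any 1 of 7 samples, and reads of the pair cannot be told apart.

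Neu3 is the plasma membrane sialidase that removes sialic acid from gangliosides. It had 44.1 to 113.8 CPM (median 85.1) in ctrl and 4.42 to 36.6 CPM (median 26.5) in FL1 mice (log2 fold change −1.97, SE 0.25, adjusted p = 2.54e-05), again without overlap. Gm2a, the activator protein that presents gangliosides to the lysosomal hexosaminidase, changed the other way, from 46.0 to 165 CPM (median 77.6) to 81.2 to 1122 CPM (median 292), a log2 fold change of 1.77 (SE 0.28, adjusted p = 0.000316). The highest value was that of FL1 estrus replicate 2, and the next in estrus was 451.5 CPM.

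Sgpp2, a phosphatase of sphingosine 1-phosphate, fell by 1.52 (SE 0.37, adjusted p = 0.0358), and most of this difference came from estrus with −2.48 against −0.59 in diestrus. St3gal1, which sialylates O-glycans, rose by 1.64 (SE 0.38, adjusted p = 0.0222), with 199 CPM in FL1 estrus replicate 2 and at most 44.4 CPM in the other FL1 samples. Without that sample the log2 fold change of St3gal1 was 1.12 and its adjusted p 0.109. The call of St3gal1 was also lost without ctrl estrus replicates 1, 2 or 3, and that of Sgpp2 without any 1 of 9 samples. The other 28 members, among them the hexosaminidase subunit Hexa (0.08) and the glucosylceramide synthase Ugcg (−0.23), did not pass the test. With the macrophage sum as a covariate St3gal5 and Neu3 were still called.

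The list of inhibin, activin, AMH and BMP genes held 32 genes tested, with a median log2 fold change of −0.04. For the ligand genes Inha, Inhba and Inhbb the log2 fold change was −0.23, 0.59 and 0.54 (adjusted p from 0.425 to 0.606).

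Among 38 transcription factors tested 2 were called, both stronger expressed, against 1.21% of all genes tested. The list median was 0.03. Runx2 belongs to the family that binds the RUNX motif and is induced in GCs around ovulation. Runx2 (ENSMUSG00000039153, chromosome 17, 44495987 to 44814797) had 0.179 to 16.2 CPM (median 1.54) in ctrl and 8.37 to 285 CPM (median 29.0) in FL1 mice. Within each stage the lines were apart, with at least 28.9 CPM in FL1 against at most 16.2 CPM in ctrl in estrus, and at least 8.37 CPM against at most 2.19 CPM in diestrus. The log2 fold change was 3.76 (SE 0.56, adjusted p = 0.000164). Runx2 overlaps Supt3 and other genes on the opposite strand. Maf, a bZIP factor, had 24.2 to 101.5 CPM (median 52.6) in ctrl and 54.1 to 327 CPM (median 126) in FL1 mice (log2 fold change 1.43, SE 0.22, adjusted p = 0.000376). With the macrophage sum as a covariate the log2 fold change of Maf was 0.68 (adjusted p = 0.434), and Runx2 was still called, at 3.85. The factors that define GCs did not pass the test, with 0.02 for Foxl2, 0.04 for Nr5a1 and −0.30 for Gata4 (adjusted p from 0.651 to 0.994).

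The promoter of Runx2 is shown because RUNX proteins can bind their own gene. The RefSeq promoter on GRCm38.p6 runs on the minus strand at chr17:44814578-44814877, from 250 bases before to 50 after the start, with matches to TGTGGT or its reverse complement in capitals.
Runx2: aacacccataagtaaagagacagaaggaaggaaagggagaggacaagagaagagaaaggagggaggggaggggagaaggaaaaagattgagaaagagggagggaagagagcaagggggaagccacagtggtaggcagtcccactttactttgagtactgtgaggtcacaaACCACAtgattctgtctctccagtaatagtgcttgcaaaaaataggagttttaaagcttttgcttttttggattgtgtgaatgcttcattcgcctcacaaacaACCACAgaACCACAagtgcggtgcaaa
It holds 3 matches, 2 of them close to its end. Of 32851 RefSeq promoters of this length, 16.8% hold at least 1 match on either strand. The share was 15.3% of 98 promoters of 73 matched genes stronger expressed in FL1, and 16.1% of 62 promoters of 55 matched genes weaker expressed, both close to the share over all promoters.

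Lipid transport and fatty acid genes gave 8 called genes among 39 tested, 6 stronger and 2 weaker expressed, against 1.21% called over all genes tested. The list median was 0.33. Of the log2 fold changes, 30 of 39 were above 0, against 7650 of 14938 over all genes. Apof, a lipoprotein component that inhibits lipid transfer, had 0 to 9.49 CPM (median 1.34) in ctrl and 9.54 to 48.8 CPM (median 17.1) in FL1 mice, without overlap (log2 fold change 3.05, SE 0.62, adjusted p = 0.00665). The highest ctrl sample of Apof, estrus replicate 1, lay just under the lowest FL1 sample, and without it the log2 fold change was 3.65. Acsl4, which activates arachidonic acid, rose by 1.197 (SE 0.24, adjusted p = 0.00499) and Abcb1b, a lipid and drug exporter, by 1.32 (SE 0.25, adjusted p = 0.0028).

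Hpgd degrades prostaglandins and was the most clearly weaker expressed gene of the list. It had 58.5 to 261 CPM (median 140) in ctrl and 7.39 to 77.6 CPM (median 34.5) in FL1 mice (log2 fold change −1.79, SE 0.31, adjusted p = 0.00105). Pla2g4a, the phospholipase that releases arachidonic acid, rose by 0.96 (SE 0.24, adjusted p = 0.0392), with 9 of 10 FL1 samples above every ctrl sample. Apoa4 fell by 1.08 (SE 0.23, adjusted p = 0.0103), Lipg, the endothelial lipase, rose by 2.40 (SE 0.56, adjusted p = 0.0226) and Apoe by 0.92 (SE 0.24, adjusted p = 0.0486). The calls of Pla2g4a, Apoe and Lipg were lost without any 1 of 11, 14 and 2 samples, in the last case FL1 estrus replicate 3 and FL1 diestrus replicate 1. With the macrophage sum as a covariate, Hpgd was the 1 called gene of the list, and the log2 fold change of Apoe was −0.09. The cholesterol synthesis list held 1 called gene of 28, the ester hydrolase Nceh1 (log2 fold change 0.69, SE 0.17, adjusted p = 0.0412, lost without any 1 of 13 samples).

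**Figure D3:**
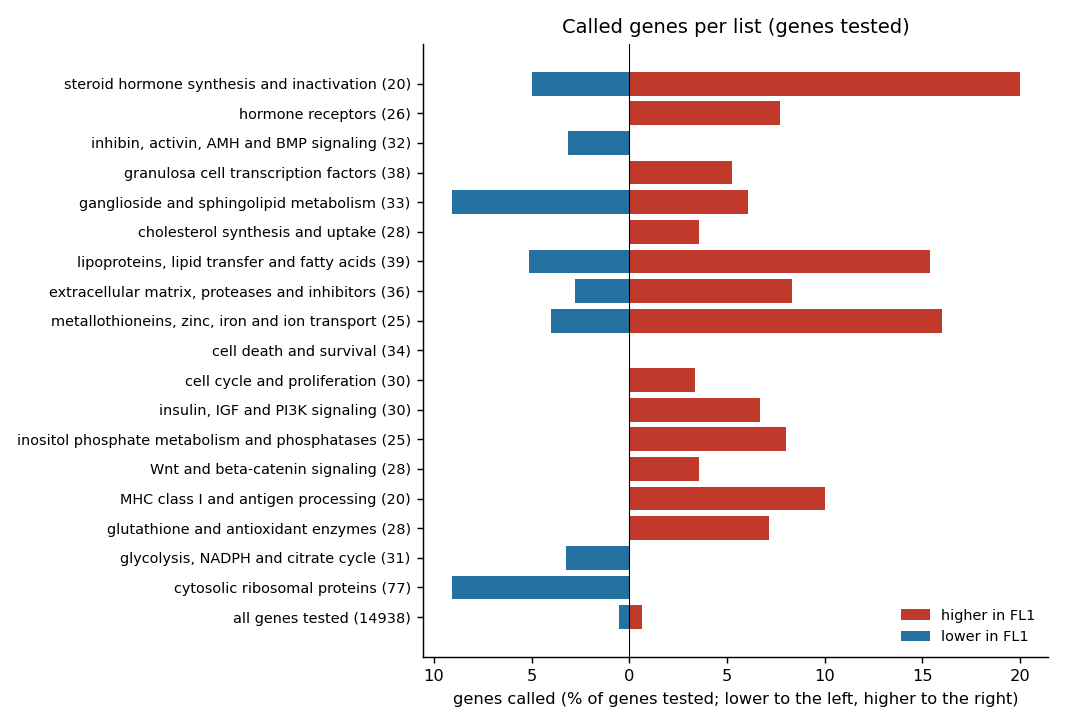
Share of called genes in each of 18 lists and among all 14938 genes tested, in percent of the genes tested in the list (number in brackets), with genes weaker expressed in FL1 to the left and stronger expressed to the right. The steroid list shows 4 stronger and 1 weaker of 20 genes, and the ribosomal list 7 weaker of 77.

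In the matrix list 4 of 36 genes were called, against 1.21% of all genes tested, with a list median of 0.39. Mfap2, a protein of elastic microfibrils, had 193 to 342 CPM (median 233) in ctrl and 32.1 to 125 CPM (median 107.9) in FL1 mice, without overlap (log2 fold change −1.33, SE 0.18, adjusted p = 6.37e-05). Timp1, an inhibitor of metalloproteases, rose by 1.75 (SE 0.37, adjusted p = 0.00935). Its call was lost under robust estimation (adjusted p = 0.0703) and without the stage term (adjusted p = 0.124). Sparc, a matrix-binding protein of remodelling tissue, rose by 0.90 (SE 0.22, adjusted p = 0.0341), with a call lost without any 1 of 10 samples. Adamtsl4, which binds microfibrils, had at most 0.803 CPM in ctrl and 0 to 16.7 CPM (median 1.93) in FL1 mice (adjusted p = 0.02). Its call was lost without FL1 estrus replicate 2 (adjusted p = 0.0919) or FL1 diestrus replicate 2, and its fitted log2 fold change of 5.43 was 7.33 without ctrl estrus replicate 3. Summed stroma markers overlapped between the lines (140.8 to 1247 CPM in ctrl, median 637.5, and 135.2 to 1713 CPM in FL1, median 1040). With that sum as a covariate Mfap2 and Adamtsl4 were still called while Timp1 and Sparc were not. Mfap2 was also called with the macrophage sum as a covariate, at −1.63, while the log2 fold changes of Timp1 and Sparc were then 0.36 (adjusted p = 0.94) and 0.39 (adjusted p = 0.802), and that of Adamtsl4 5.55 (adjusted p = 0.11).

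In the list of metal and ion transport 5 of 25 genes were called, against 1.21% of all genes tested. Kcnj2, an inward rectifier potassium channel that sets the resting potential, had 4.55 to 32.6 CPM (median 21.96) in ctrl and at most 3.42 CPM in FL1 mice, 6 of which were at 0. The log2 fold change of Kcnj2 was −4.97 (SE 0.79, adjusted p = 0.000451) and −6.27 without FL1 diestrus replicate 5, the sample with 3.42 CPM. Slc7a8, an exchanger of neutral amino acids, rose by 1.26 (SE 0.18, adjusted p = 0.000144), from 44.7 to 143 CPM to 112.7 to 349 CPM. The taurine transporter Slc6a6, the sodium pump subunit Atp1b1 and the kinase Sgk1, which activates ion transport, rose by 0.91 (SE 0.19), 1.01 (SE 0.19) and 1.60 (SE 0.32), with adjusted p-values of 0.00792, 0.00378 and 0.00617. None of the 5 was called with the macrophage sum as a covariate, at log2 fold changes of −4.73 for Kcnj2, 1.05 for Slc7a8, 0.99 for Slc6a6, 1.08 for Atp1b1 and 1.69 for Sgk1, with adjusted p-values from 0.0678 to 0.129.

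Other lists gave few called genes, where 1.21% of all genes tested were called. Dusp23, a phosphatase of proteins, had 0.364 to 6.43 CPM (median 3.02) in ctrl and 9.91 to 37.0 CPM (median 21.8) in FL1 mice, without overlap (log2 fold change 2.81, SE 0.44, adjusted p = 0.000316). It was called with Ptp4a2 (0.55, SE 0.14, adjusted p = 0.0478) among 25 inositol phosphate and phosphatase genes. Vnn1, a pantetheinase that affects glutathione stores, had 13.5 to 83.5 CPM in ctrl and 86.7 to 606 CPM in FL1 mice (log2 fold change 1.52, SE 0.29, adjusted p = 0.00285), again without overlap. Mgst2, a glutathione transferase, rose by 2.01 (SE 0.34, adjusted p = 0.00107), and both were the called genes of 28 in the glutathione list. With the macrophage sum as a covariate Vnn1 was still called, at 2.18, while Mgst2 had 1.73 (adjusted p = 0.12). Me2, the mitochondrial malic enzyme, fell by 1.05 (SE 0.15, adjusted p = 0.000105) as the 1 called gene of 31 in carbohydrate metabolism, with 204 to 430 CPM in ctrl and 114.8 to 224 CPM in FL1 mice. Insulin and PI3K genes gave Sgk1 and Pik3c2g (1.94, SE 0.50, adjusted p = 0.0484) among 30, and cell cycle genes gave Ccng1 (0.73, SE 0.18, adjusted p = 0.0376) among 30. The calls of Ptp4a2, Pik3c2g and Ccng1 were lost without any 1 of 15, 16 and 12 samples. No gene of 34 in the cell death list was called by edgeR, where 7 had an unadjusted p under 0.05 and DESeq2 called 2.

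The lowest p-values belonged to genes outside these lists. Zpld1, a membrane protein with a zona pellucida-like domain (ENSMUSG00000064310, chromosome 16, 55225175 to 55297986), had 0 to 29.9 CPM (median 7.18) in ctrl and 110 to 1158 CPM (median 372) in FL1 mice (log2 fold change 6.05, SE 0.44, adjusted p = 4.17e-10). Wfdc10, of a family of secreted protease inhibitors (ENSMUSG00000070529, chromosome 2, 164656046 to 164657368), had 23.3 to 242 CPM (median 134) in ctrl and 0 to 7.76 CPM (median 2.34) in FL1 mice (log2 fold change −5.65, SE 0.41, adjusted p = 4.17e-10). Both also changed with stage in the same model, Zpld1 rising from estrus to diestrus by 2.22 (adjusted p = 0.001) and Wfdc10 falling by 1.27 (adjusted p = 0.0459), and over all genes stage called 473 of 14938 (3.17%). Wfdc10 overlaps Wfdc9 on the opposite strand.

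Of the stronger expressed genes of this kind, Igsf3, an immunoglobulin superfamily member, rose by 1.29 (SE 0.19, adjusted p = 0.000112) and Ecm1, a secreted matrix protein, by 2.46 (SE 0.41, adjusted p = 0.000677). Cldn18, a tight junction protein, had no read in the 10 ctrl samples and 881 reads in 9 FL1 samples. Against a floor of 3 counts over the ctrl line it was at least 306-fold higher (adjusted p = 0.000451), and FL1 diestrus replicate 1 alone had 443 of these reads, without which the fitted value fell from 9.41 to 8.37. The non-coding AC145590.1 had 1 read in ctrl and 687 in FL1 mice, a 716-fold ratio with a 95% counting interval from 128 to 28320, and 349 of its reads came from FL1 estrus replicate 2. Its fitted log2 value of 8.18 was 7.51 without that sample and 8.95 without ctrl estrus replicate 5.

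Among the weaker expressed genes, Jam2, a junctional adhesion molecule, fell by 1.09 (SE 0.15, adjusted p = 4.01e-05), Camk2n1, an inhibitor of a calmodulin-dependent kinase, by 2.03 (SE 0.28, adjusted p = 4.9e-05), and Atp10d, a lipid flippase annotated as a polymorphic pseudogene, by 2.61 (SE 0.43, adjusted p = 0.000624). Dph7, an enzyme of diphthamide synthesis, had 433 reads in ctrl and 2 in FL1 mice, a 208-fold ratio (95% counting interval 57.2 to 1721). The non-coding AA465934 fell by 5.20 (SE 0.70, adjusted p = 4.01e-05), but its ctrl samples formed 2 sets. Of these, 7 had 281 to 554 CPM and 3 (estrus replicates 3 and 5, diestrus replicate 4) had 5.74 to 11.8 CPM, within the 0 to 15.3 CPM of the FL1 mice.

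The design pooled the stages, and the fits of single stages show what the pooling added. In the 10 estrus samples alone 100 of 13007 genes (0.769%) were called and in the 10 diestrus samples alone 32 of 12886 (0.248%). These fits use the same mice as the pooled one, so their calls are not independent of it. Of the 181 genes, 54 were called in estrus alone, 14 in diestrus alone, 14 in each of the 2 and 99 in neither, 59 of the 99 stronger and 40 weaker expressed. A further 36 genes were called in a single stage and not over both. Every one of the 181 differences had the same sign in both stages, which calling the mean of the stages favours, and 70 were larger in diestrus and the others in estrus. Among the genes called in neither stage alone, those with the lowest p were Mgst2, Igha, Mfap3l and Lyz2 on the stronger and Cep97, Tsc22d4, Gm15459 and Ccdc158 on the weaker side.

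Mfap3l, a membrane protein, had a log2 fold change of 1.47 in estrus and 1.49 in diestrus (1.48 together, SE 0.27, adjusted p = 0.00209), and Cep97, a centriole protein, of −1.17 and −1.15 (−1.16 together, SE 0.21, adjusted p = 0.00211). Tsc22d4 fell by 1.02 (SE 0.19) and Ccdc158 by 1.75 (SE 0.35), with adjusted p-values of 0.00318 and 0.00665. Lyz2, the lysozyme of macrophages, rose by 2.09 (SE 0.38, adjusted p = 0.00226), from 3.28 to 28.1 CPM to 4.22 to 68.5 CPM. Igha, the constant region of immunoglobulin A, had 1 read in ctrl and 169 reads in FL1 mice, at least 3 in each, a 176-fold ratio (95% counting interval 31.2 to 6996). Both are transcripts of immune cells. Lyz2 is itself part of the macrophage sum given above and Igha is not, and the part of immune cells in these differences was not tested.

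**Figure D4:**
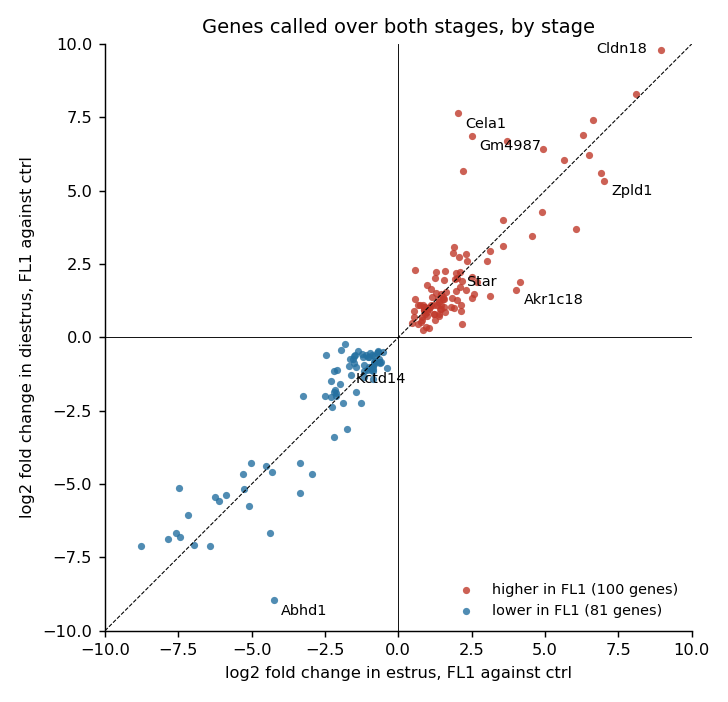
Log2 fold change of FL1 against ctrl in diestrus (y axis) against that in estrus (x axis) for the 181 genes called over both stages, 1 point per gene, with the dashed line where the stages are equal. All points lie in the lower left and upper right quadrants, and Cela1, Gm4987 and Abhd1 lie furthest above or below the dashed line.

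No gene of 14938 (0%) was called for the interaction of line and stage in edgeR, while 710 genes, 17 of the 181 included, had an unadjusted p under 0.05. The lowest adjusted p was 0.933, which was also that of Akr1c18, Prlr and Sgpp2, whose differences were larger in estrus. DESeq2 called 1 gene, Smim5, named here after its values were seen, which had reads in 7 of 20 samples and was not tested by edgeR. A p that misses the threshold does not show that the lines differed equally in the stages. The 3 called genes with the lowest interaction p were Kctd14 (0.000335), Gm4987 (0.000712) and Cela1 (0.000791). Kctd14, of a family with a potassium channel tetramerization domain, had 514 to 1014 CPM in ctrl and 116.1 to 337 CPM in FL1 mice in estrus, but 72.1 to 210 and 77.6 to 149 CPM in diestrus. Its additive log2 fold change of −1.02 (SE 0.26, adjusted p = 0.0392) thus stands for −1.82 in estrus and −0.21 in diestrus, and its call was lost without any 1 of 12 samples. Cela1, a pancreatic-type elastase, had no read in ctrl mice in diestrus and 0.171 to 9.91 CPM in FL1 mice, while in estrus it had 2.95 to 7.81 and 6.63 to 42.5 CPM. Its call (log2 fold change 3.54, SE 0.78, adjusted p = 0.014) was lost without FL1 estrus replicate 2, with an adjusted p of 0.0608.

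Of the 181 genes, 34 have a near-identical copy elsewhere in the genome (at least 90% identity within the last 500 bases of a transcript), 10 of the stronger and 24 of the weaker expressed ones. Reads that matched several places were left out of the counts, and the other reads of such genes could be split among the copies. Their single values are therefore uncertain, and the pooled values below hold only reads that matched a single place. Pseudogenes made up 7.73% of the called and 4.05% of the tested genes. The counts of each of the 34 genes and its copies were therefore pooled and compared on the log2(CPM + 0.5) scale by an exact two-sided permutation test within stages (63504 permutations, smallest p 3.15e-05, adjusted over the 34). The pooled difference passed an adjusted p of 0.05 in the same direction for 23, in the opposite direction for 4 and not at all for 7.

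Ribosomal protein genes made up much of this group. Of 77 tested, 7 were called and all 7 were weaker expressed (Rps2, Rpl29, Rpl3, Rpl26, Rpl32, Rpl35a and Rpl7a). The list median was −0.27, and 16 log2 fold changes were above 0. Over all genes tested 0.542% were called as weaker expressed, and 7650 of 14938 log2 fold changes were above 0. Rps2 had 41.0 to 545 CPM (median 333) in ctrl and 3.80 to 23.9 CPM (median 17.4) in FL1 mice (log2 fold change −4.44, SE 0.34, adjusted p = 9.69e-10). Pooled with 76 copies its difference was −1.93 in place of −4.28 on the log2(CPM + 0.5) scale (exact permutation test, adjusted p = 0.000306), and Rps2 itself held 86.3% of the pool in ctrl and 16% in FL1 mice. Rpl3 did not pass when pooled with 25 copies (difference −1.25, exact permutation test, adjusted p = 0.0635).

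Rpl32 and its copy Gm4987 were called in opposite directions. Rpl32 (ENSMUSG00000057841, chromosome 6, 115805505 to 115808747) had 881 to 2079 CPM (median 1436) in ctrl and 207 to 650 CPM (median 276) in FL1 mice (log2 fold change −2.17, SE 0.19, adjusted p = 1.39e-08). Gm4987, a processed pseudogene on chromosome X (46455887 to 46456294), had 0.292 to 110 CPM (median 2.21) in ctrl and 154 to 386 CPM (median 216) in FL1 mice (log2 fold change 4.41, SE 0.80, adjusted p = 0.00208). Rpl32l, another copy on chromosome 10, rose by 3.73 (SE 0.69, adjusted p = 0.00233). The coding bases of Rpl32 and Gm4987 in GENCODE M21 differ at 20 of 408 positions, and their last 150 bases are printed with the 6 that differ in capitals.
Rpl32: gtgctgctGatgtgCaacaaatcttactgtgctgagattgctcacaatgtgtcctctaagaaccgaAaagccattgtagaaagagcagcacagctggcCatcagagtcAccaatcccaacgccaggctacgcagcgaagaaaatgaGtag
Gm4987: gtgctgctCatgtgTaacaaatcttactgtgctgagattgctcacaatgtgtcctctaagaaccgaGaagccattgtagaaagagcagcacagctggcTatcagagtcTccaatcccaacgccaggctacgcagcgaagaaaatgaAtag
Within the ctrl line the 2 samples with the highest Gm4987, estrus replicates 2 and 4 with 91.5 and 110 CPM, were those with the lowest Rpl32, 881 and 936 CPM, while the other 8 ctrl samples had at most 3.35 CPM of Gm4987 and at least 1216 CPM of Rpl32. Pooled over the 10 sequences of this family the level was 990 to 2087 CPM (median 1439) in ctrl and 435 to 1055 CPM (median 549) in FL1 mice, a log2 difference of −1.33 (exact permutation test, adjusted p = 0.000178). Gm4987 held 1.46% of its pool in ctrl and 39.6% in FL1 mice.

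**Figure D5:**
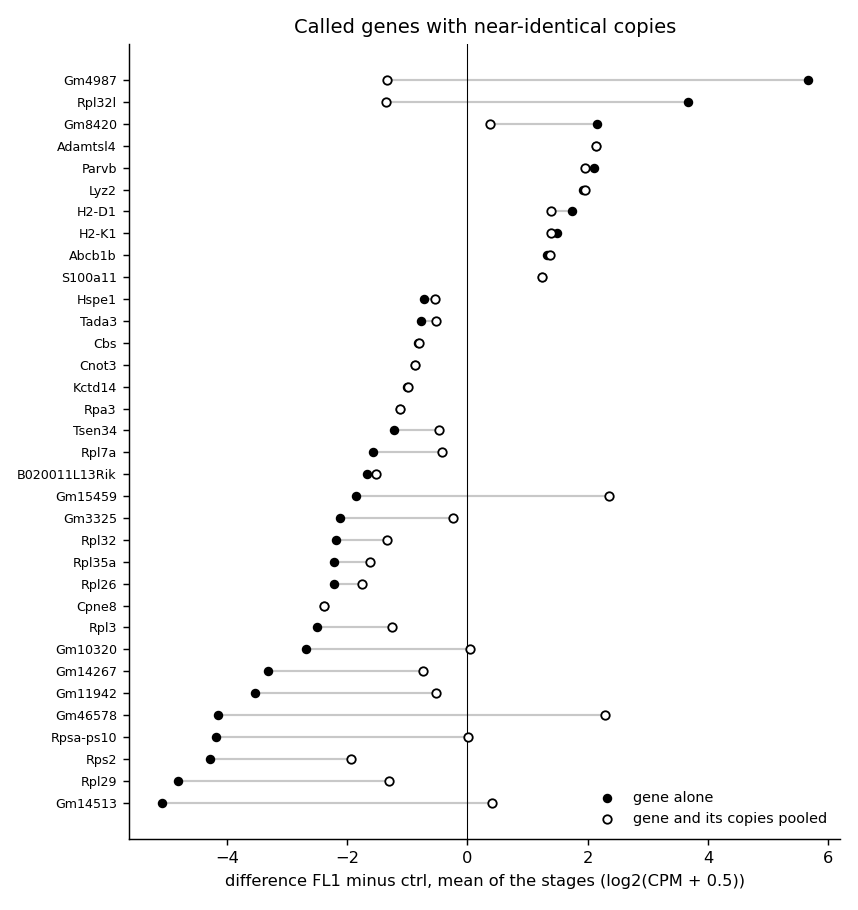
Difference of FL1 minus ctrl on the log2(CPM + 0.5) scale, mean of the stages, for the 34 called genes with near-identical copies, alone (filled points) and pooled with their copies (open points). The open points of Gm4987, Rpl32l, Gm15459 and Gm46578 lie on the other side of 0 from the filled ones, and those of H2-K1, S100a11 and Parvb stay near them.

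The pseudogene Gm14513 fell by 6.15 (SE 0.64, adjusted p = 5.25e-07, −7.01 without FL1 diestrus replicate 2), but pooled with Rps3 and 1 other copy the difference was 0.41 (exact permutation test, adjusted p = 0.134). Gm15459, a pseudogene of Hspa8, had 120 reads in ctrl and 1 in FL1 mice, and pooled with its copies the level was higher in FL1 mice by 2.36 (exact permutation test, adjusted p = 0.00126). By contrast, S100a11, a calcium-binding protein, differed by 1.24 alone and pooled, and Parvb, a focal adhesion protein, by 2.11 alone and 1.95 pooled (exact permutation test, adjusted p = 0.000428 for both pools). The MHC class I genes H2-K1 and H2-D1, which present peptides on the cell surface, are copies of each other and of other class I genes. H2-K1 had 50.7 to 185 CPM (median 93.4) in ctrl and 181 to 319 CPM (median 286) in FL1 mice (log2 fold change 1.41, SE 0.19, adjusted p = 4.23e-05), and H2-D1 rose by 1.45 (SE 0.33, adjusted p = 0.0191). Pooled with its 10 copies the difference of H2-K1 was 1.40 (exact permutation test, adjusted p = 0.000178). Both were the called genes of 20 in the class I list (1.21% over all genes tested), whose median log2 fold change was 0.44. That of Tap1, B2m and Psmb9, which prepare or carry the presented peptides, was 0.51, 0.50 and 0.09 (adjusted p from 0.27 to 0.963).

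The called genes lay on all 19 autosomes and the X chromosome, from 0.399% of the genes tested on chromosome 19 to 1.78% on chromosome 13. Starts of called genes within 1 Mb of each other formed 28 pairs with 42 genes, 14 pairs in the same and 14 in opposite directions. These 42 genes were 23.2% of the called genes, and 21.6% of the genes not called also started within 1 Mb of a called gene. The potassium channel genes Kcnj16 and Kcnj2 start 98.1 kb apart on chromosome 11 and differed in opposite directions, Kcnj16 with 1 read in ctrl and 153 in FL1 mice and a call lost without any 1 of 10 samples. Ctss, Adamtsl4 and Ecm1 lie within 207.4 kb on chromosome 3 and were all stronger expressed in FL1 mice, Ctss with a call lost without any 1 of 15 samples.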

How the data were processed

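GCs of 20 mice were sequenced as 3′ mRNA libraries. The deposited values are raw counts of reads per Ensembl gene, which the authors made by aligning trimmed reads with STAR to GRCm38. The strand setting of the counting is not given in the sources used here, and the unstranded column was used, so reads of a gene and of a gene overlapping it cannot be told apart. Between 48.9% and 58.4% of reads fell on genes, while 23.2% to 32.8% matched several places and were not counted. Of 55487 identifiers 55227 were matched to GENCODE M21 symbols.

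The counts were scaled with TMM factors and filtered with filterByExpr (minimum count 10, total 15, share 0.7). FL1 was compared with ctrl by edgeR's quasi-likelihood test (edgeR 4.0.16, R 4.3.3) with stage as an additive term and Benjamini-Hochberg adjustment at 0.05. The step was tested on simulated data with known changes. DESeq2 1.42.0 and limma 3.58.1 served as alternatives, as did a mean count of at least 10, RLE factors, a fit without stage, a replicate block, single stages and leaving out each sample. Copies were found with BLAST 2.17.0, and their pooled CPM was compared with SciPy 1.17.1 by exact permutation within stages with a pseudocount of 0.5. Intervals cover 95% of counting error only, and reads without molecular identifiers are not independent molecules. The labels give 1 sample per mouse, and the 40 pairs of samples within groups differed by more than counting noise (chi-square per degree of freedom 24.7 to 82.6).

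The members and gene lists were chosen with earlier results of these data known. The genes named are, in each direction, the 12 of lowest p without and the 3 with a near-identical copy and the 4 of lowest p called in neither stage alone, then the 3 of lowest interaction p and the called members of the lists. Other genes, named for lines that did not overlap, for a neighbour or for a copy, were chosen after their values were seen. Settings with marker sums as covariates were added after the data had been seen. Some results are not reported here.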

Additional observations from a re-analysis of the deposited data

Results flagged for a closer look

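In groups of 5 mice, a sample was set apart where its gap to the nearest other sample, divided by the range of the group, passed Dixon's critical value of 0.71. This was so for 37 of 284 groups tested over the named genes (13.0%), in 31 genes, while chance gives about 1 in 20 groups where values are normally distributed. The CPM of many of these genes are skewed or near 0, and the chance rate for them was not computed. FL1 estrus replicate 2 accounted for 14 of the 37 and FL1 diestrus replicate 1 for 6.

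FL1 estrus replicate 2 was the highest of its group for the steroid and receptor genes Cyp11a1 (6214 CPM, next 2249 CPM) and Prlr (1639 CPM, next 528.0 CPM). The same held for the transcription factor Runx2 (285.1 CPM, next 90.02 CPM), the ganglioside gene Gm2a (1122 CPM) and the sialyltransferase gene St3gal1 (199.0 CPM). It was also highest for Acsl4 (472.6 CPM), Mgst2 (190.5 CPM), Vnn1 (606.3 CPM), Sgk1 (675.2 CPM), Pik3c2g (195.5 CPM), Ecm1 (54.47 CPM), Adamtsl4 (16.65 CPM), Cldn18 (29.68 CPM) and AC145590.1 (43.7 CPM).

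FL1 diestrus replicate 1 was the highest of its group for Cyp11a1 (1771 CPM), Runx2 (50.96 CPM), Cldn18 (69.25 CPM), Acsl4 (228.7 CPM), Timp1 (241.0 CPM) and Cyp1b1 (116.1 CPM). Among the other FL1 samples in estrus, replicate 3 was highest for Ptgfr (186.6 CPM), and replicate 4 for Gm4987 (386.5 CPM) and Hpgd (69.36 CPM). In diestrus FL1 replicate 2 was highest for Gm14513 (3.022 CPM) and Adamtsl4 (5.906 CPM) and lowest for Ptp4a2 (380.3 CPM), and FL1 replicate 5 was highest for Kcnj2 (3.419 CPM).

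In ctrl mice in estrus, replicate 3 was highest for Mfap2 (342.3 CPM), Lipg (28.57 CPM) and Adamtsl4 (0.8032 CPM) and lowest for H2-K1 (50.71 CPM). Replicate 1 was highest for Apof (9.495 CPM) and lowest for Rpl29 (20.16 CPM), replicate 2 was lowest for Pla2g4a (8.859 CPM), and replicate 4 was highest for Rpl26 (380.6 CPM). In diestrus, ctrl replicate 5 was highest for Akr1c18 (307.3 CPM) and ctrl replicate 4 lowest for AA465934 (6.195 CPM). The summed luteal markers of FL1 estrus replicate 2, 3374 CPM, were the median of its group, and its summed macrophage markers, 48.09 CPM, the lowest.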

How the results depend on the processing

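In place of 181 called genes, DESeq2 gave 438, limma-voom with sample weights 286, no filter on low counts 319, the macrophage sum as a covariate 49, the estrus samples alone 100 and the diestrus samples alone 32. Leaving out 1 sample gave 139 (without FL1 estrus replicate 2) to 209 (without FL1 diestrus replicate 3), and 136 to 168 of the 181 genes were called in each. RLE factors gave 181, robust estimation 166, a mean count of at least 10 gave 169, no stage term 136 and 1 mean per line and stage 208. The stroma sum, the red cell sum and the share of reads outside genes as covariates gave 153, 152 and 235. For the interaction of line and stage DESeq2 gave 1 gene in place of 0, and for the members of the lists 76 called genes in place of 50. The log2 fold change of Apoe was −0.0944 with the macrophage sum as a covariate, while no other called gene changed sign in the fits across both stages. The causes of these changes were not tested.

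With the replicate number as a block 136 genes were called, 120 of them among the 181. The numbers share no stated origin, same-numbered samples had mean correlations of −0.03 to 0.03, and 4 of 20 samples lay closest to their own number, so the numbers were not taken as pairs.

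The depth of 5446576 to 8257041 counted reads limits genes with few reads, whose folds carry wide counting intervals, and each line is 1 population.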
